A study of Mus musculus with 12 samples.

Results

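Transporters of amino acids and taurine that are known from brain endothelium, 10 of the 49315 genes counted, were followed across 3 *Gpr124* genotypes of the embryonic mouse forebrain. The genes were chosen by name, with symbols taken from GENCODE vM21 for the Ensembl identifiers, as *Slc38a2*, *Slc38a3*, *Slc38a5*, *Slc7a1*, *Slc7a3*, *Slc7a5*, *Slc3a2*, *Slc1a4*, *Slc1a5* and *Slc6a6*. The libraries came from CD31+ endothelial cells that were sorted, without CD140b+ and CD45+ cells, from E15.5 mouse forebrains, with 1 embryo per library and 4 embryos of each genotype. The wild-type (WT) embryos carried intact *Gpr124*. The *Gpr124ΔC/ΔC* embryos were homozygous for an allele in which a V5 tag and a stop codon precede the intracellular domain of the receptor. The *Gpr124-/-* embryos were homozygous for a *lacZ* null allele, and each mutant came from intercrosses of its own heterozygotes. Both alleles were present in every cell of the embryo, so the endothelium was not the only mutant tissue. GPR124 is a WNT7 co-receptor of brain endothelium, and the comparison asked how transporter mRNAs differ when the whole receptor or its intracellular domain is missing. The shortened receptor is also known to be present at a reduced protein level, so loss of the domain and loss of receptor protein cannot be told apart in *Gpr124ΔC/ΔC*.

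Endothelial cells of the brain are sealed by tight junctions, so amino acids cross them through carriers in the luminal and abluminal membranes. Exchangers such as LAT1 swap one amino acid for another, while sodium-coupled carriers of systems A, N and ASC move amino acids against their gradient, and the balance of these carriers sets which amino acids enter the brain and which leave it. LAT1 is a pair of proteins, with the light chain from *Slc7a5* doing the transport and the heavy chain from *Slc3a2* bringing it to the membrane.

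Each library had between 13877572 and 22551163 counted reads. The targeted gene, listed as *Adgra2*, was at 28.3 to 51.1 TPM (counts per base of gene length, scaled to the same sum in every library) in WT, 34.1 to 63.4 TPM in *Gpr124ΔC/ΔC* and 4.03 to 6.29 TPM in *Gpr124-/-*, so the null libraries carried their label. Summed TPM of 10 endothelial markers ran from 12084 to 15774 in WT, from 7419 to 12547 in *Gpr124ΔC/ΔC* and from 6611 to 7919 in *Gpr124-/-*. The tight junction gene *Cldn5* gave the most to this sum in every genotype. In *Gpr124-/-* against WT the median log2 fold change of these 10 genes was -0.11, with *Cldn5* called lower (-2.12) and *Emcn* called higher (1.26). By adjusted p alone 3 of the 10 were higher and 3 lower, against 19.8% of all tested genes. Summed TPM of 8 erythroid markers ran from 7012 to 11772 in WT, from 5448 to 9898 in *Gpr124ΔC/ΔC* and from 17820.0 to 54233 in *Gpr124-/-*. Platelet markers also summed higher in *Gpr124-/-* (497 to 1435 TPM over 5 genes) than in WT (231 to 455 TPM). The sums of 8 macrophage markers (3.22 to 9.61 TPM in WT and 24.2 to 40.3 TPM in *Gpr124-/-*) and of 7 neuron markers (58.8 to 137.1 and 138.2 to 190.7 TPM) were low but likewise higher in *Gpr124-/-* without overlap. *P2ry12* gave most of the macrophage sum (a mean of 4.41 TPM in WT and 26.4 TPM in *Gpr124-/-*), while *Csf1r* was at 0.335 and 0.360 TPM and 6 of the 8 had too few reads to be tested. Of the neuron markers *Gap43* (8.99 and 54.9 TPM) and *Stmn2* (14.2 and 34.4 TPM) were called and the other 5 were not. The sums of 8 pericyte markers were 28.1 to 65.7 TPM in WT, 14.2 to 32.0 TPM in *Gpr124ΔC/ΔC* and 33.4 to 40.7 TPM in *Gpr124-/-*. In *Gpr124-/-* against WT 1 of the 8 was called higher (*Abcc9*, 1.79 TPM in WT and 11.6 TPM in *Gpr124-/-*) and 1 lower (*Rgs5*, 17.4 and 6.56 TPM). In *Gpr124ΔC/ΔC* against WT all 8 pericyte markers had log2 fold changes below 0 (median -0.90), with 0 called by edgeR, 4 lower at an unadjusted p under 0.05, 3 called lower by DESeq2 and 0 by limma. Of all tested genes edgeR called 1.03% lower in this comparison. The sums of 5 fibroblast markers were 5.50 to 12.5 TPM in *Gpr124ΔC/ΔC* and 8.07 to 9.90 TPM in *Gpr124-/-*. In WT they were 57.4 TPM in the embryo KE8, which also had the highest pericyte sum, and 9.23, 9.28 and 9.83 TPM in JE6, LE6 and JE1. The part of these other cells in the results below was not tested, and in sorted bulk samples fewer cells of a type and less RNA per cell cannot be told apart. A 57-base gene, *Gm23935*, took 12.5% of TPM in the WT embryo JE6 and 14.1% in the *Gpr124ΔC/ΔC* embryo JE3 against 1.22% to 3.04% in the other 10 libraries, which lowers every other TPM of JE6 and JE3. The tests below used counts, scaled between libraries by the trimmed mean of M-values (TMM), and not TPM.

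In WT endothelium most of these genes were among the most abundant of the transcriptome. *Slc38a5* had the highest mean level of the 10 (3664 ± 605 TPM, SD, n = 4), which placed it 15th of the 27869 genes with any TPM. It was followed by *Slc3a2* (2168 ± 285 TPM), *Slc7a5* (2045 ± 1073 TPM), *Slc38a2* (1347 ± 211 TPM), *Slc1a4* (1008 ± 157 TPM), *Slc38a3* (695 ± 110 TPM), *Slc7a1* (473 ± 29.9 TPM) and *Slc6a6* (446 ± 58.6 TPM). *Slc1a5* (33.4 ± 3.58 TPM) and *Slc7a3* (0.521 ± 0.216 TPM) stood far below. In that order the ranges of *Slc3a2*, *Slc7a5*, *Slc38a2* and *Slc1a4* overlapped from each gene to the next, as did those of *Slc7a1* and *Slc6a6*, and the other neighbours were apart. In *Gpr124-/-* the order was different, with *Slc7a5* (944 ± 170 TPM) and *Slc3a2* (749 ± 176 TPM) on top and *Slc38a5* (106 ± 77.1 TPM) in 7th place. The 10 genes together made up 1.19% ± 0.0467 of all TPM in WT, 0.626% ± 0.0923 in *Gpr124ΔC/ΔC* and 0.292% ± 0.051 in *Gpr124-/-* (SD, n = 4 each), and the ranges of the 3 genotypes did not overlap.

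**Figure D1:**
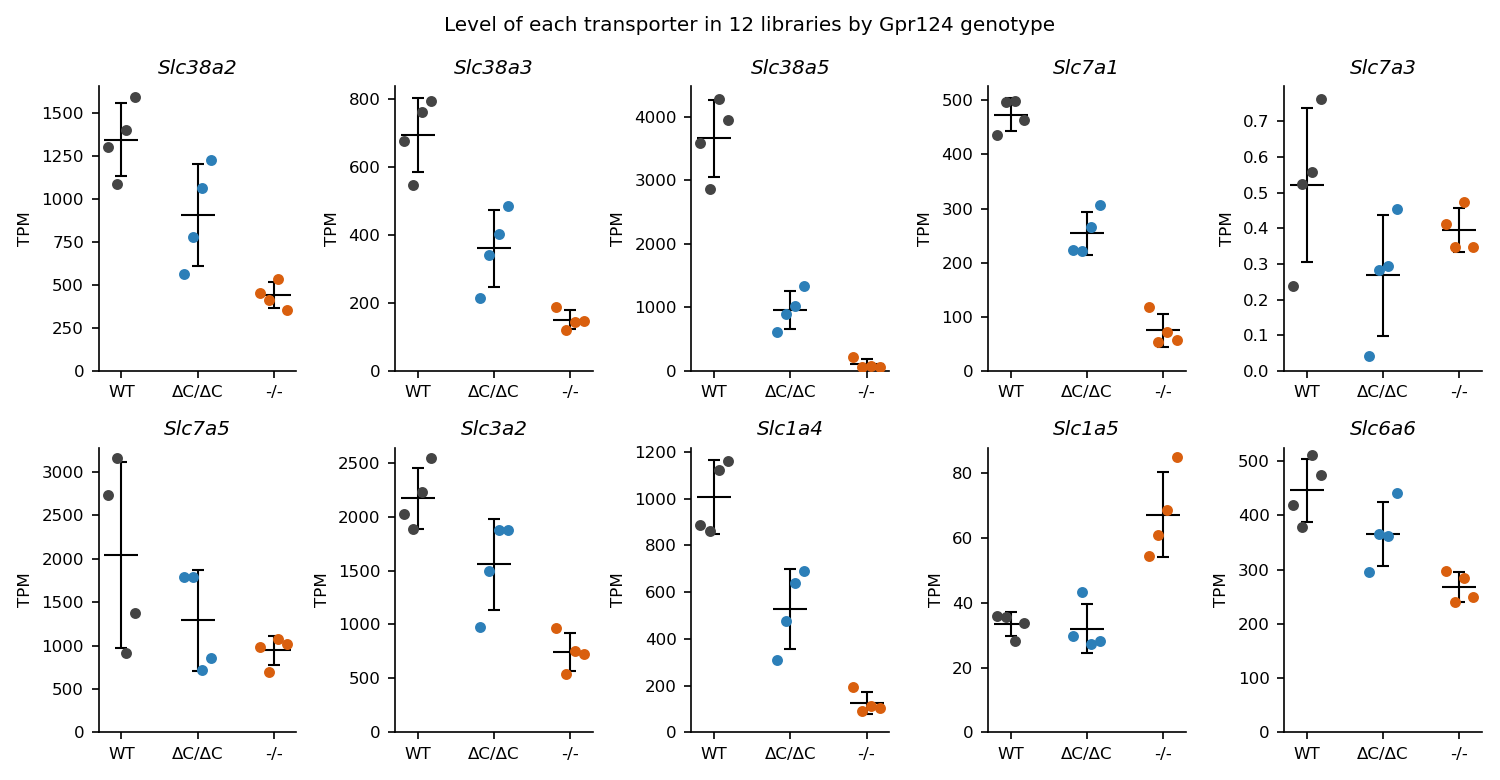
TPM of each of the 10 transporters (vertical axis, linear, from 0) in the 12 libraries by *Gpr124* genotype (horizontal axis), with points for embryos and black lines for the mean ± SD of 4 embryos. *Slc38a5* runs from 2861 TPM or more in WT to 221 TPM or less in *Gpr124-/-*, *Slc1a5* is higher in *Gpr124-/-* than in WT, and *Slc7a5* splits into a high and a low pair in WT and in *Gpr124ΔC/ΔC*.

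In *Gpr124-/-* against WT, 6 of the 9 transporters that could be tested fell, and none passed the rule in the upward direction. The 6 were *Slc38a5*, *Slc1a4*, *Slc7a1*, *Slc38a3*, *Slc38a2* and *Slc3a2*. The rule asked for a log2 fold change beyond 1 in either direction together with an adjusted p below 0.05 (quasi-likelihood test of edgeR, Benjamini-Hochberg over 16637 genes). *Slc7a3* had too few reads to be tested. By this rule 4.21% of all tested genes were lower and 5.67% higher in *Gpr124-/-*. The median log2 fold change was -1.65 over the 9 transporters and -0.01 over all tested genes. Of the upward direction, 1 transporter (*Slc1a5*) had an unadjusted p under 0.05, and DESeq2 and limma on TPM called 0 as well. By adjusted p alone 8 of the 9 passed, 7 lower and 1 higher, against 19.8% of all tested genes. CPM (reads scaled to library size by TMM) of the 2 genotypes did not overlap for 8 of the 9, against 22.9% of all tested genes.

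In *Gpr124ΔC/ΔC* against WT, 3 of the 9 fell by the same rule, namely *Slc38a5*, *Slc38a3* and *Slc1a4*, and none rose. Of all tested genes 1.03% were called lower and 0.890% higher. All 9 fold changes were below 0, with a median log2 fold change of -0.73 against 0.01 over all tested genes, and 0 of the 9 were higher at an unadjusted p under 0.05 or by DESeq2 or limma. By adjusted p alone 6 of the 9 passed, all of them lower, against 4.09% of all tested genes, and the CPM ranges were apart for 7 of the 9, against 11.3%. On the TPM scale the ranges of 5 were apart, and the share of all tested genes on that scale was not counted. *Slc1a4* and *Slc38a3* lay close to the fold-change threshold, and without the embryo JE3, or with limma on TPM, only *Slc38a5* of the 9 was called.

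In *Gpr124-/-* against *Gpr124ΔC/ΔC*, 5 of the 9 were lower (*Slc38a5*, *Slc1a4*, *Slc7a1*, *Slc38a3* and *Slc3a2*) and 1 was higher (*Slc1a5*), where 1.94% of all tested genes were called lower and 2.67% higher. By adjusted p alone 8 of the 9 passed, against 8.82% of all tested genes, and the CPM ranges of 8 were apart, against 13.9%. The median log2 fold change was -1.003 over the 9 and -0.02 over all tested genes. The 3 comparisons share libraries, so they do not support one another. Embryo labels begin with 4 letters whose meaning is not given, and no *Gpr124ΔC/ΔC* embryo had the letter of a *Gpr124-/-* embryo. Letter K alone held both WT and *Gpr124-/-* embryos, 1 of each. With the letter as a term *Gpr124-/-* against WT therefore rests on KE4 against KE8. With the letter as a term 2 of the 9 (*Slc38a5* and *Slc1a4*) were called between the mutants. The others called without it were then at log2 fold changes of 1.08 (*Slc1a5*), -1.12 (*Slc7a1*), -0.95 (*Slc38a3*) and -0.59 (*Slc3a2*), with adjusted p values from 0.0583 to 0.458, whereas 6 and 3 were called against WT, as without the term.

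**Figure D2:**
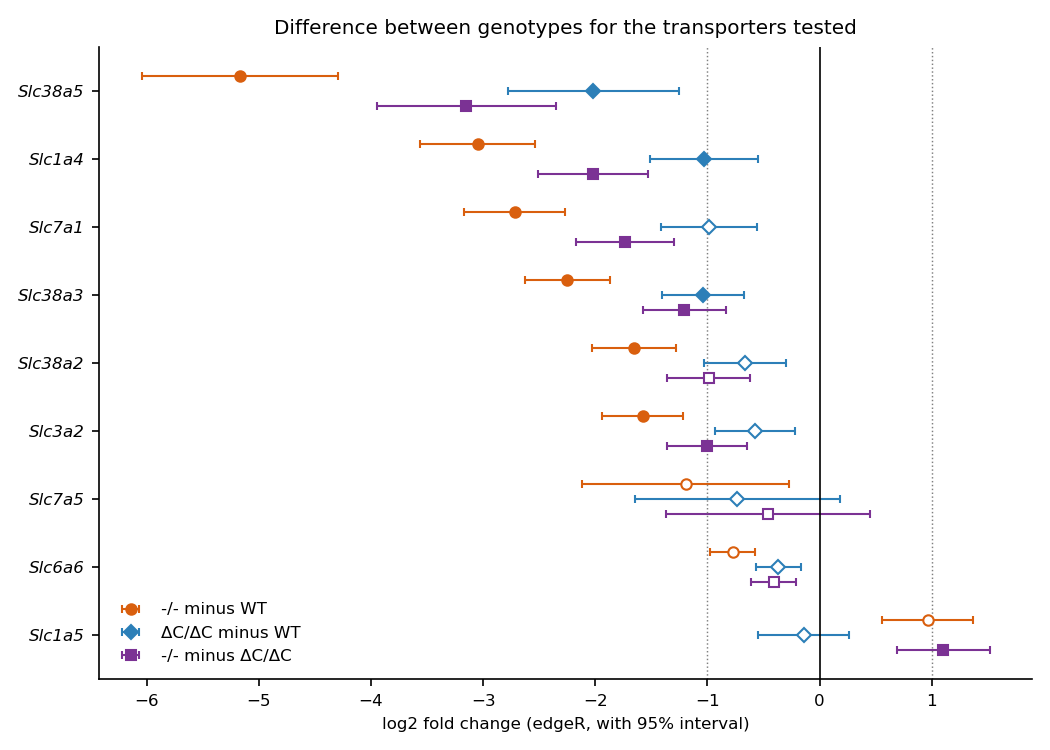
Log2 fold change of the 9 tested transporters (horizontal axis) with its 95% interval, from edgeR, in 3 comparisons of genotypes. Filled symbols passed the rule and open ones did not, and dotted lines mark a log2 fold change of -1 and 1. The values run from -5.17 for *Slc38a5* in *Gpr124-/-* against WT to 1.11 for *Slc1a5* in *Gpr124-/-* against *Gpr124ΔC/ΔC*.

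Promoters of the members that fell are shown because these genes moved together, and each sequence runs 5′ to 3′ on the gene's strand from 250 bases before to 50 bases after a RefSeq start (GRCm38.p6). The RefSeq promoter data held 5 of the 10 members, namely *Slc38a2*, *Slc38a5*, *Slc7a1* (with 2 starts), *Slc3a2* and *Slc1a4*. Capitals mark matches on either strand to CTTTGA, the core that TCF/LEF factors bind, or to TGATGNAA, the C/EBP-ATF response element of amino acid starvation. Of the 32851 promoters in the data, 16% held the first motif and 3.97% held the second. *Slc38a5* (chrX:8271131-8271430, plus strand), *Slc38a2* and the upstream start of *Slc7a1* (chr5:148399855-148400154, minus strand) held neither. The downstream start of *Slc7a1* (chr5:148392766-148393065, minus strand) held the first motif 3 times, starting 145, 134 and 47 bases before the start. *Slc3a2* (chr19:8713848-8714147, minus strand) held it once, 189 bases before the start, and *Slc1a4* (chr11:20332664-20332963, minus strand) held the second motif once, 4 bases before the start. A match is a run of letters and not a measured site.
Slc38a5: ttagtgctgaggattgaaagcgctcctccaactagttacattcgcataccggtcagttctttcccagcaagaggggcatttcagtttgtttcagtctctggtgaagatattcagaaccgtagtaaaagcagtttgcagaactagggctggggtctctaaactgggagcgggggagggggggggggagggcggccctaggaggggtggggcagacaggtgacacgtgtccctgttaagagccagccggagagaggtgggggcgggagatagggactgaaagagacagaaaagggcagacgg
Slc7a1, downstream start: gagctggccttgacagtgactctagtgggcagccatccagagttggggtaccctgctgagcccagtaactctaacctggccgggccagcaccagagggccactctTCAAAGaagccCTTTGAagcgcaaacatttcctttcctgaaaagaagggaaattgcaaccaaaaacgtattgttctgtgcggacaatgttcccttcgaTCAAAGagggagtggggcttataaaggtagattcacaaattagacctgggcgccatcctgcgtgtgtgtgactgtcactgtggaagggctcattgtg
Slc3a2: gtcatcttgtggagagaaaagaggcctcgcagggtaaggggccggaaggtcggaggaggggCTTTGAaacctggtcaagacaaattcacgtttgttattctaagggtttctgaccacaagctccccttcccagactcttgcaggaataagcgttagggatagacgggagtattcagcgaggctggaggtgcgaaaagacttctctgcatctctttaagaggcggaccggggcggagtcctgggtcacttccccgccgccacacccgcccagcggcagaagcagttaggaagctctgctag
Slc1a4: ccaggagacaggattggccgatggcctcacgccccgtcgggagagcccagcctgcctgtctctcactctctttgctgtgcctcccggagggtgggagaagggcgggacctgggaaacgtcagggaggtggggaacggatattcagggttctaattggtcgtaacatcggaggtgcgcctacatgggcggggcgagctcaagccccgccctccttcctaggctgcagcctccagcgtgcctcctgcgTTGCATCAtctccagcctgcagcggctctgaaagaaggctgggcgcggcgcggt

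The system N carriers, which exchange glutamine and histidine with sodium and protons, included the largest difference. *Slc38a5* (SNAT5, ENSMUSG00000031170, on the plus strand of chromosome X of GRCm38 from 8271133 to 8280179) was at 3581, 2861, 4271 and 3942 TPM in the WT embryos JE1, JE6, KE8 and LE6. It was at 607, 893, 1018 and 1335 TPM in the *Gpr124ΔC/ΔC* embryos JE3, JE4, LE2 and LE5. It was at 221, 62.9, 81.6 and 58.7 TPM in the *Gpr124-/-* embryos KE4, ME1, ME4 and ME5. The 3 genotypes did not overlap, and KE4 was the highest *Gpr124-/-* library, with the other 3 close together. In *Gpr124-/-* *Slc38a5* fell by 5.17 on the log2 scale (standard error 0.41, adjusted p = 2.1e-06, edgeR), which was 36.0-fold, and by 5.78 without KE4. It fell by 2.02 in *Gpr124ΔC/ΔC* (standard error 0.35, adjusted p = 0.00495). Between the mutants it was lower by a log2 fold change of -3.15 in *Gpr124-/-* (standard error 0.37, adjusted p = 0.000366), and -3.76 without KE4. Within label letter K, where 1 *Gpr124-/-* embryo (KE4) and 1 WT embryo (KE8) could be compared, the log2 ratio of CPM was -4.32 in *Gpr124-/-* against WT. Within letters J and L it was -2.16 and -1.85 in *Gpr124ΔC/ΔC* against WT.

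*Slc38a3* (SNAT3, ENSMUSG00000010064, minus strand of chromosome 9, 107650634 to 107669530), the other system N carrier, was at 675, 548, 762 and 794 TPM in WT, at 216, 340.2, 402 and 484 TPM in *Gpr124ΔC/ΔC* and at 189, 122, 145 and 145 TPM in *Gpr124-/-*, with embryos in the order given above. Every *Gpr124ΔC/ΔC* library lay between the libraries of the other genotypes. In *Gpr124-/-* it fell by 2.25 on the log2 scale (standard error 0.18, adjusted p = 2.03e-06, edgeR) and by 1.04 in *Gpr124ΔC/ΔC* (standard error 0.17, adjusted p = 0.00318). Without JE3 the second value was -0.90 and short of the fold threshold, as it was without LE6 of WT (-0.998). The ratio of *Slc38a3* to *Slc38a5* TPM, which is free of the scaling between libraries, was 0.19 ± 0.00945 in WT, 0.373 ± 0.018 in *Gpr124ΔC/ΔC* and 1.76 ± 0.673 in *Gpr124-/-* (SD, n = 4 each). Its range went from 0.178 to 0.201 in WT, from 0.355 to 0.395 in *Gpr124ΔC/ΔC* and from 0.858 to 2.48 in *Gpr124-/-*. *Slc38a5* thus was the more abundant system N carrier in all 4 WT and all 4 *Gpr124ΔC/ΔC* libraries, and *Slc38a3* was the more abundant one in 3 of the 4 *Gpr124-/-* libraries, the exception being KE4.

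*Slc38a2* (SNAT2, ENSMUSG00000022462, minus strand of chromosome 15, 96687394 to 96699698), the system A carrier of small neutral amino acids, was at 1303, 1088, 1400.0 and 1596 TPM in WT, at 564, 777, 1062 and 1227 TPM in *Gpr124ΔC/ΔC* and at 453, 414, 537 and 355 TPM in *Gpr124-/-*. The *Gpr124-/-* libraries were below all others, while LE5 of *Gpr124ΔC/ΔC* was above JE6 of WT in TPM (1246 against 1242 without *Gm23935*) and below it in CPM (1823 against 1956). In *Gpr124-/-* *Slc38a2* fell by 1.65 on the log2 scale (standard error 0.17, adjusted p = 2.02e-05, edgeR). In *Gpr124ΔC/ΔC* its log2 fold change was -0.67 (95% interval -1.03 to -0.30, adjusted p = 0.045), under the fold threshold, with adjusted p values between 0.00202 and 0.367 under other settings. Between the mutants it was -0.99, and it passed when JE3, JE4 or ME4 was left out (-1.12 to -1.05).

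The cationic carriers, which bring arginine and lysine into cells, were an abundant and a barely detected mRNA. *Slc7a1* (CAT1, ENSMUSG00000041313, minus strand of chromosome 5, 148327410 to 148399904) was at 435, 497, 498 and 464 TPM in WT, at 223, 222.0, 265 and 306 TPM in *Gpr124ΔC/ΔC* and at 119, 52.9, 71.0 and 57.0 TPM in *Gpr124-/-*. The genotypes did not overlap. In *Gpr124-/-* it fell by 2.72 on the log2 scale (standard error 0.21, adjusted p = 1.85e-06, edgeR), and by 2.12 with the label letter as a term. In *Gpr124ΔC/ΔC* its log2 fold change was -0.98 (standard error 0.20, 95% interval -1.41 to -0.56, adjusted p = 0.0116), just short of the fold threshold, which it passed when JE1, LE6 or LE5 was left out. Between the mutants it was -1.74 (adjusted p = 0.000358), and -1.12 (adjusted p = 0.0583) with the label letter as a term.

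*Slc7a3* (CAT3, ENSMUSG00000031297, minus strand of chromosome X, 101079210 to 101086020) was near the floor of detection, with 53 reads over the WT libraries, 20 over *Gpr124ΔC/ΔC* and 37 over *Gpr124-/-*. No library held more than 19 reads or 0.763 TPM. The genotypes overlapped, and no difference was detectable at this depth. The ratio of *Slc7a3* to *Slc7a1* TPM was 0.00109 ± 0.00045 in WT and 0.00569 ± 0.00151 in *Gpr124-/-* (SD, n = 4 each), and CAT1 mRNA remained the main one of the pair in every library.

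LAT1, the exchanger of leucine, phenylalanine and other large neutral amino acids, showed 2 different patterns for its chains. The heavy chain *Slc3a2* (4F2hc or CD98, ENSMUSG00000010095, minus strand of chromosome 19, 8706882 to 8723369) was at 2027, 1883, 2224 and 2539.9 TPM in WT, at 977, 1498, 1877 and 1874 TPM in *Gpr124ΔC/ΔC* and at 969, 539, 757 and 731 TPM in *Gpr124-/-*. The ranges of the 3 genotypes were apart, with *Gpr124ΔC/ΔC* in between. In *Gpr124-/-* *Slc3a2* fell by 1.58 on the log2 scale (standard error 0.17, adjusted p = 2.26e-05, edgeR), and its log2 fold change in *Gpr124ΔC/ΔC* was -0.58 (95% interval -0.93 to -0.22, adjusted p = 0.0762). Between the mutants it was -1.003 (adjusted p = 0.00275), on the edge of the fold threshold, which it missed when KE8, LE2, LE5, ME1 or ME4 was left out (-0.99 to -0.89), and -0.59 (adjusted p = 0.458) with the label letter as a term.

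The light chain *Slc7a5* (ENSMUSG00000040010, minus strand of chromosome 8, 121881150 to 121907694) was at 2736, 3157, 909 and 1378 TPM in WT, at 1790.1, 1794, 718 and 862 TPM in *Gpr124ΔC/ΔC* and at 979, 696, 1078 and 1023 TPM in *Gpr124-/-*. In WT and in *Gpr124ΔC/ΔC* the pair of embryos with the label letter J was above the other pair, and the genotypes overlapped. Its log2 fold change did not pass in *Gpr124-/-* (-1.19, 95% interval -2.12 to -0.27, adjusted p = 0.0693, edgeR) or in *Gpr124ΔC/ΔC* (-0.73, 95% interval -1.65 to 0.18, adjusted p = 0.509). DESeq2, the fit of only the 2 genotypes and the fit without KE8 called it lower in *Gpr124-/-*. Letter J exceeded the other letters by a log2 ratio of CPM of 1.49 in WT and 1.36 in *Gpr124ΔC/ΔC*. With the letter as a term the log2 fold change was -0.82 in *Gpr124ΔC/ΔC* (adjusted p = 0.00254) and 0.06 in *Gpr124-/-* (adjusted p = 0.956), the latter resting on the 1 pair of embryos of letter K. Within letter K *Slc7a5* was at 1207 CPM in *Gpr124-/-* and 1156 CPM in WT, whereas within J and L the log2 ratio of *Gpr124ΔC/ΔC* to WT was -0.77 and -0.90. For *Slc3a2* the difference between letter J and the others was smaller and of opposite sign (-0.17 in WT and -0.45 in *Gpr124ΔC/ΔC*). The ratio of light to heavy chain TPM was therefore 1.35 and 1.68 in the WT embryos of letter J, 0.409 and 0.543 in the other WT embryos, and between 1.01 and 1.42 in *Gpr124-/-*.

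**Figure D3:**
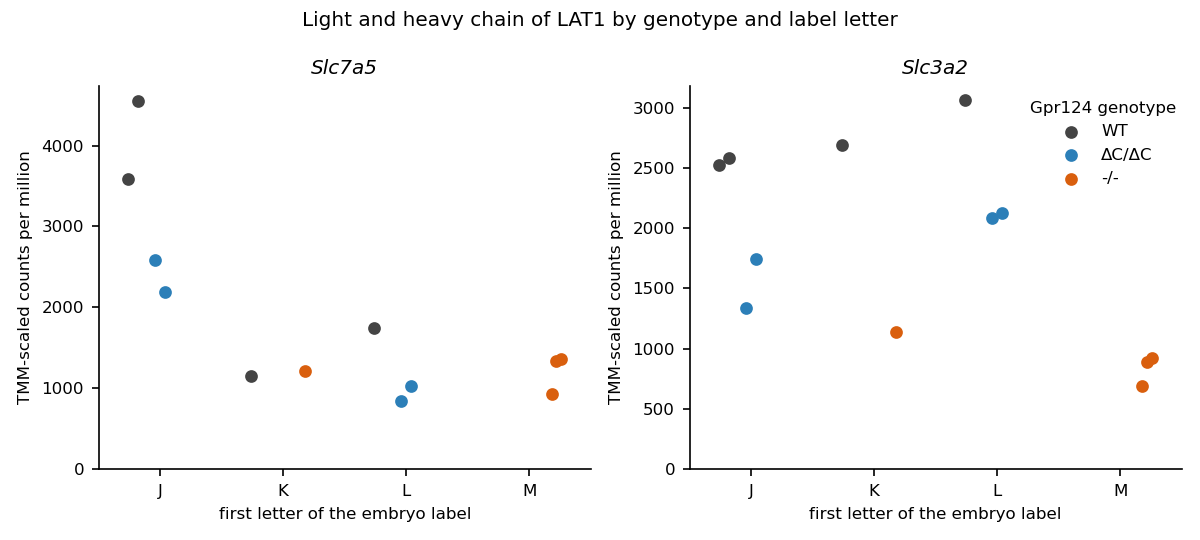
TMM-scaled CPM (vertical axis, linear, from 0) of the light chain *Slc7a5* and the heavy chain *Slc3a2* of LAT1 by the first letter of the embryo label (horizontal axis), with 1 point per embryo coloured by *Gpr124* genotype. *Slc7a5* is high in letter J and similar in both embryos of letter K (1156 and 1207 CPM), whereas *Slc3a2* is lower in the mutants than in WT within every letter that holds both.

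The neutral carriers of system ASC, which exchange alanine, serine and cysteine, had fold changes of opposite sign in *Gpr124-/-*. *Slc1a4* (ASCT1, ENSMUSG00000020142, minus strand of chromosome 11, 20302180 to 20332713) was at 886, 860.0, 1122 and 1163 TPM in WT, at 312, 478, 638 and 690.2 TPM in *Gpr124ΔC/ΔC* and at 195, 90.4, 114 and 104 TPM in *Gpr124-/-*. The genotypes were apart, and as for *Slc38a5* and *Slc7a1* the highest *Gpr124-/-* library was KE4. In *Gpr124-/-* *Slc1a4* fell by 3.05 on the log2 scale (standard error 0.24, adjusted p = 2.03e-06, edgeR), or 8.28-fold, and by 1.03 in *Gpr124ΔC/ΔC* (standard error 0.22, adjusted p = 0.0181). Leaving out KE8, LE6, JE3 or JE4, 1 at a time, brought the latter to between -0.99 and -0.89, short of the threshold.

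*Slc1a5* (ASCT2, which also carries glutamine, ENSMUSG00000001918, plus strand of chromosome 7, 16781340 to 16798274) was at 36.0, 35.6, 28.3 and 33.8 TPM in WT, at 29.7, 43.1, 27.2 and 28.1 TPM in *Gpr124ΔC/ΔC* and at 54.4, 60.8, 68.6 and 84.8 TPM in *Gpr124-/-*. All *Gpr124-/-* libraries were above all others, and WT and *Gpr124ΔC/ΔC* overlapped. *Slc1a5* was higher in *Gpr124-/-* than in WT by a log2 fold change of 0.96 (95% interval 0.55 to 1.37, adjusted p = 0.00281, edgeR), under the fold threshold, and it rose by the rule against *Gpr124ΔC/ΔC* (1.11, standard error 0.19, adjusted p = 0.00359). Without ME5 the latter was 0.96 and short of the threshold, and without JE6 or KE4 the former passed it (1.04 and 1.07). With the label letter as a term the former was 0.90 (adjusted p = 0.0509) and the latter 1.08 (adjusted p = 0.0913). Between *Gpr124ΔC/ΔC* and WT its log2 fold change was -0.14 (95% interval -0.55 to 0.27). Erythroid and platelet markers were also higher in the 4 *Gpr124-/-* libraries, and their part was not tested. Among these 4 the erythroid sum was highest in ME1 (54233 TPM) and lowest in ME4 (17820.0 TPM). The platelet sum was 497, 1434, 1026 and 1435 TPM in KE4, ME1, ME4 and ME5. Like *Slc1a5* it was lowest in KE4. It was nearly equal in ME1 and ME5, whereas *Slc1a5* was lower in ME1 than in ME4 and ME5. The ratio of *Slc1a4* to *Slc1a5* TPM went from 30.7 ± 7.63 in WT to 17.4 ± 7.66 in *Gpr124ΔC/ΔC* and 1.99 ± 1.08 in *Gpr124-/-* (SD, n = 4 each), so *Slc1a4* was still the more abundant in every library.

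*Slc6a6* (TauT, ENSMUSG00000030096, plus strand of chromosome 6, 91684053 to 91759066) takes up taurine, an amino sulfonic acid that cells use for osmotic balance. It was at 418, 379, 511 and 474 TPM in WT, at 296, 365, 362 and 440.0 TPM in *Gpr124ΔC/ΔC* and at 297, 240.1, 284 and 249.6 TPM in *Gpr124-/-*. The TPM of *Gpr124ΔC/ΔC* overlapped that of both other genotypes, while its CPM overlapped neither. Its log2 fold change was -0.78 in *Gpr124-/-* (95% interval -0.98 to -0.57, adjusted p = 6.74e-05, edgeR) and -0.37 in *Gpr124ΔC/ΔC* (95% interval -0.57 to -0.17, adjusted p = 0.0442), both under the fold threshold. The adjusted p of the latter was 0.0614 once the label letter was a term and lay between 0.00671 and 0.556 under the settings tried, so it did not pass in each of them. An antisense gene, *Gm44981*, shares 117 of its 8457 exon bases, and since the strand setting of the counting is not given, reads of that stretch cannot be told apart.

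**Figure D4:**
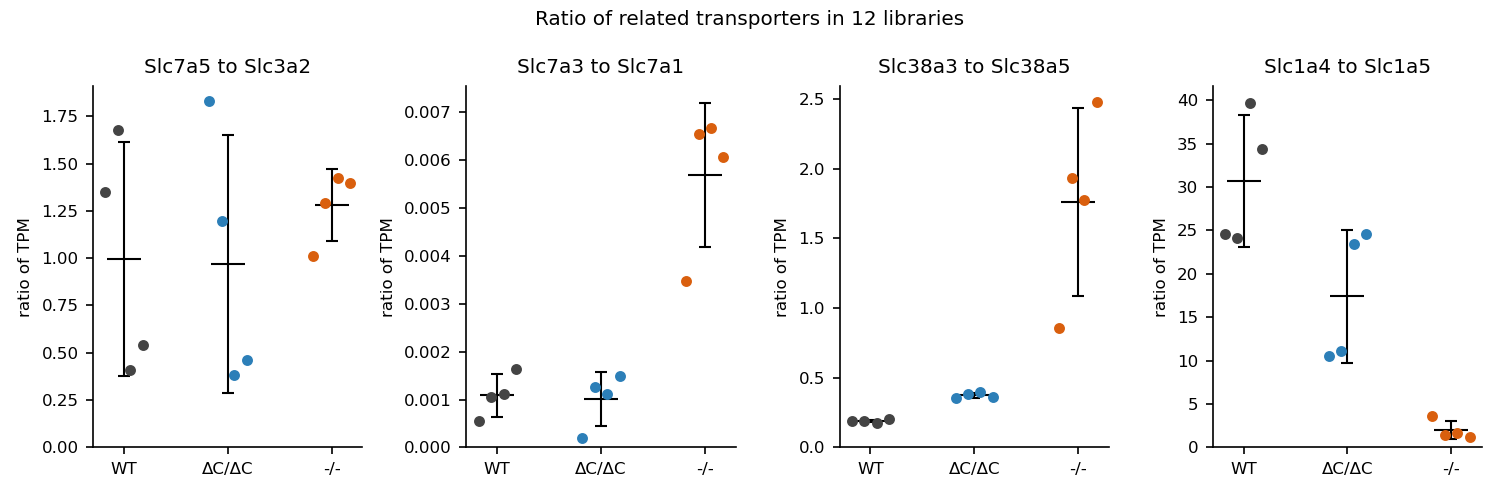
Ratio of TPM of related transporters (vertical axes, linear, from 0) in the 12 libraries by *Gpr124* genotype (horizontal axis), with points for embryos and black lines for the mean ± SD of 4 embryos. The ratio of *Slc38a3* to *Slc38a5* is near 0.19 in WT and between 0.858 and 2.48 in *Gpr124-/-*, and that of *Slc7a5* to *Slc3a2* splits by embryo within WT and *Gpr124ΔC/ΔC*.

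The genes whose log2 CPM over the 12 libraries was most like that of the 6 members called in *Gpr124-/-* are given as a description, since the 12 points share 3 genotypes. *Slc38a5* was most like *Enpp2*, *Kcp* and *Tpd52l1* (Pearson r from 0.996 to 0.997), and *Slc1a4* was most like *Ocln*, a tight junction gene, *Kcp* and *Tnfrsf19*, a WNT target (r from 0.994 to 0.996). *Slc7a1* was most like *Slc7a8*, *Slc38a5* and *Apod* (r from 0.992 to 0.994). *Slc38a3* was most like *Cldn5*, the main claudin of brain endothelium, *Angptl4* and *Aif1l* (r from 0.994 to 0.995). *Slc38a2* was most like *Tfrc*, the transferrin receptor, *Slc31a1*, a copper carrier, and *Epha7* (r from 0.987 to 0.995). *Slc3a2* was most like *Lhfpl2*, *Tnfrsf19* and *Tmem44* (r from 0.991 to 0.993). Of the other members, *Slc6a6* had r from 0.950 to 0.977 with these 6, *Slc7a5* had r from 0.334 to 0.510 and *Slc1a5* had r from -0.837 to -0.756.

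Beyond the 10 members, 48 further amino acid transporters were listed, of which 26 could be tested and 22 had too few reads. In *Gpr124-/-* against WT 6 of the 26 fell (4.21% of all tested genes did) and 0 rose (5.67%), with 4 higher at an unadjusted p under 0.05 and 0 called higher by DESeq2 or by limma on TPM. The median log2 fold change of the 26 was -0.26, and by adjusted p alone 3 were higher and 8 lower, against 19.8% of all tested genes. In *Gpr124ΔC/ΔC* 3 fell (*Slc7a8*, *Slc6a17* and *Slc1a3*, against 1.03% of all tested genes) and 0 rose (0.890%), with 4 higher at an unadjusted p under 0.05 and 0 by DESeq2 or limma, and the median was -0.14. By adjusted p alone 0 were higher and 4 lower, against 4.09% of all tested genes. Between the mutants 3 were lower in *Gpr124-/-* (*Slc7a8*, *Slc6a17* and *Slc43a2*, against 1.94% of all tested genes), and limma on TPM and edgeR called 0 higher while DESeq2 called 1. Limma on TPM fitted only genes with a mean of at least 1 TPM, which left out *Slc6a17* and others of the 26. On log2(TPM + 1) it called 3 lower in *Gpr124-/-*, and *Slc6a17* as well without that filter, and 1 (*Slc1a3*) in *Gpr124ΔC/ΔC*. Without LE6, JE4 or LE2, 1 at a time, edgeR also called only *Slc1a3* in *Gpr124ΔC/ΔC*.

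*Slc7a8* (LAT2, another light chain that pairs with *Slc3a2*) had the largest fall of this group. Its mean was 230.2 ± 32.4 TPM in WT, 90.4 ± 32.1 TPM in *Gpr124ΔC/ΔC* and 12.9 ± 8.88 TPM in *Gpr124-/-* (SD, n = 4 each). In *Gpr124-/-* it fell by 4.23 on the log2 scale (standard error 0.39, adjusted p = 8.19e-06, edgeR) and by 1.45 in *Gpr124ΔC/ΔC* (adjusted p = 0.0338), and with the label letter as a term the former was -3.29. The call in *Gpr124ΔC/ΔC* was lost when JE6, KE8, LE6, JE3, JE4, LE2 or ME4 was left out, and in every limma setting. *Slc43a2* (LAT4, a facilitative carrier of large neutral amino acids) went from 107.5 ± 17.7 TPM in WT to 25.4 ± 3.84 TPM in *Gpr124-/-*, a log2 fold change of -2.13 (standard error 0.17, adjusted p = 2.39e-06), and was at -0.78 (adjusted p = 0.0155) in *Gpr124ΔC/ΔC*. *Slc1a3* (the glutamate carrier GLAST, also a marker of radial glia) was at 9.16 ± 2.44 TPM in WT, 2.50 ± 0.427 TPM in *Gpr124ΔC/ΔC* and 2.12 ± 0.895 TPM in *Gpr124-/-*, with log2 fold changes of -1.95 and -2.15 in the 2 mutants against WT (adjusted p = 0.000536 and 4.49e-05). Summed TPM of 7 neural progenitor markers was 37.1 to 54.3 in WT, 25.4 to 47.0 in *Gpr124ΔC/ΔC* and 35.7 to 49.1 in *Gpr124-/-*, where *Fabp7* gave the most. *Hopx*, another of the 7, was lower in both mutants, with log2 fold changes of -3.42 in *Gpr124-/-* (adjusted p = 4.01e-06, edgeR) and -1.92 in *Gpr124ΔC/ΔC* (adjusted p = 0.0011), and the other 6 were not called. The part of these cells in *Slc1a3* was not tested. *Slc6a17*, a neutral carrier of synaptic vesicles, was at only 1.81 TPM in WT and fell by 3.43 in *Gpr124-/-* (adjusted p = 1.01e-05) and by 1.38 in *Gpr124ΔC/ΔC* (adjusted p = 0.0153). *Slc7a11* (xCT, the cystine-glutamate exchanger, -1.46, adjusted p = 0.0459) and *Slc36a1* (a lysosomal proton-coupled carrier, -1.11, adjusted p = 0.00821) fell in *Gpr124-/-*, and with the label letter as a term neither passed (adjusted p = 0.865 and 0.692). That fit rests on the letter K embryos KE4 and KE8 for *Gpr124-/-* against WT. *Slc7a11* also lost its call when any 1 of the WT or *Gpr124-/-* libraries except KE8 was left out (adjusted p from 0.0545 to 0.119), and *Slc36a1* when JE6 was (-0.96).

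Genes that cells switch on when amino acids run short were examined next, 23 genes of the ATF4 response and 20 cytosolic aminoacyl-tRNA synthetases, which charge tRNAs with amino acids. Every one of them could be tested. Of the 23 response genes 3 rose in *Gpr124-/-* against WT (5.67% of all tested genes did) and 0 fell (4.21%), with 1 lower at an unadjusted p under 0.05. DESeq2 called 3 of the 23 higher and 0 lower, while limma on TPM, which left out *Vldlr* for its mean below 1 TPM, called 0. Their median log2 fold change was 0.53, and by adjusted p alone 10 were higher and 1 (*Atf3*) was lower, against 19.8% of all tested genes in either direction. The 3 called were *Trib3*, a pseudokinase that restrains ATF4 (1.24, adjusted p = 0.00908), *Vldlr*, a lipoprotein receptor (1.10, adjusted p = 0.0307), and *Ddit3*, the stress factor CHOP (1.08, adjusted p = 0.00802). With the label letter as a term none of these 3 passed (adjusted p from 0.138 to 0.968), with log2 fold changes of 1.68 for *Trib3*, 0.11 for *Vldlr* and 0.12 for *Ddit3*. In that fit *Gpr124-/-* against WT rests on the letter K embryos KE4 and KE8. *Vldlr* also lost its call without JE1, JE6, LE6, ME1 or ME5 (adjusted p from 0.0707 to 0.093), and *Ddit3* without ME1 or ME5 (0.82 and 0.98). *Ddit3* was at 29.3, 75.6, 41.1 and 63.0 TPM and *Vldlr* at 0.550, 1.12, 0.700 and 1.22 TPM in KE4, ME1, ME4 and ME5. Summed platelet markers were at 497, 1434, 1026 and 1435 TPM and erythroid ones at 25159, 54233, 17820.0 and 35395 TPM in the same embryos, so ME1 and ME5 were the highest in each, and the part of these cells was not tested. *Trib3* had another order, at 6.35, 4.23, 3.31 and 7.09 TPM in KE4, ME1, ME4 and ME5. In *Gpr124ΔC/ΔC* 0 of the 23 were called in either direction by edgeR, DESeq2 or limma, where edgeR called 0.890% of all tested genes higher and 1.03% lower. At an unadjusted p under 0.05, 1 of the 23 was higher and 2 were lower, and the median log2 fold change was 0.11. In *Gpr124-/-* against *Gpr124ΔC/ΔC* edgeR called 1 higher (*Ddit3*, 1.05, adjusted p = 0.0212) and 1 lower (*Cth*, cystathionine gamma-lyase, which makes cysteine, -1.35, adjusted p = 0.0438), and by adjusted p alone 5 were higher and 1 lower, where 2.67% and 1.94% of all tested genes were called higher and lower and 8.82% passed by adjusted p alone. Of the 20 synthetases 0 were called in any comparison by edgeR, DESeq2 or limma. By edgeR 5.67% of all tested genes were called higher and 4.21% lower in *Gpr124-/-* against WT. In *Gpr124ΔC/ΔC* against WT it was 0.890% and 1.03%, and between the mutants 2.67% and 1.94%. At such shares few of any 20 genes would be called. By adjusted p alone 1 synthetase was higher and 0 lower in *Gpr124-/-* against WT, against 19.8% of all tested genes. At an unadjusted p under 0.05, 3 were higher and 0 lower there, with a median log2 fold change of 0.05. In *Gpr124ΔC/ΔC* against WT 0 were under it in either direction. Between the mutants 3 synthetases were higher and 0 lower at an unadjusted p under 0.05, and by adjusted p alone 0 were in either direction (8.82% of all tested genes). The share of all tested genes at this unadjusted p was not counted.

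**Figure D5:**
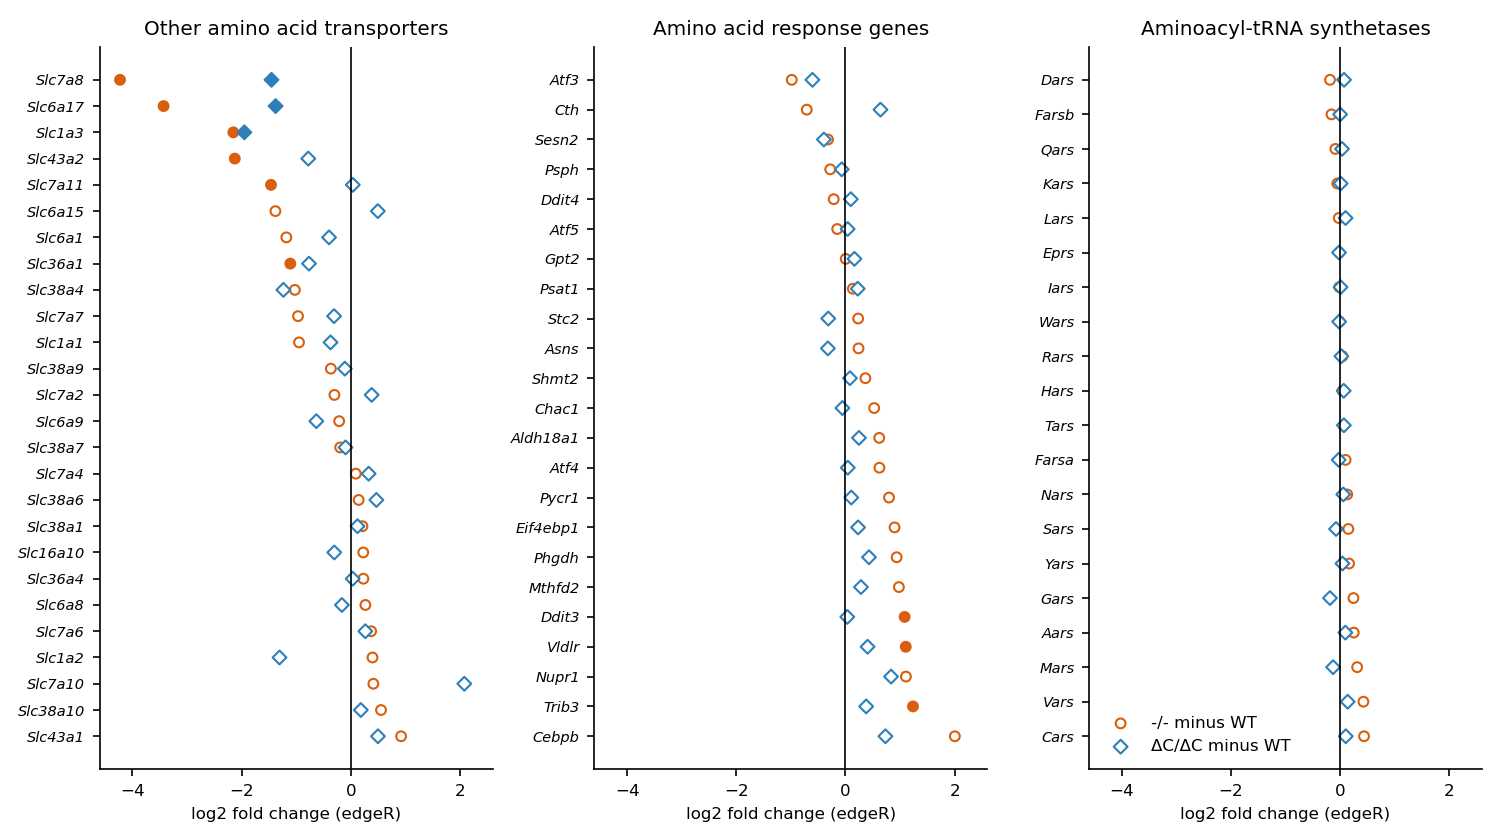
Log2 fold change (horizontal axis, from edgeR) of 26 other amino acid transporters, 23 amino acid response genes and 20 aminoacyl-tRNA synthetases, 1 gene per line, in *Gpr124-/-* against WT (circles) and *Gpr124ΔC/ΔC* against WT (diamonds), with filled symbols for genes past the rule. Filled circles lie to the left among the transporters, down to -4.23 for *Slc7a8*, and to the right among the response genes, up to 1.24 for *Trib3*, and no synthetase has a filled symbol.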

How the data were processed

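Libraries of 12 embryos were made from RNA of sorted forebrain endothelium (PicoPure kit, SMART-Seq V4, poly(A) selection) and sequenced with paired ends on an Illumina instrument. The submitters' processing notes name bcl2fastq 2.17 and mm10, while the aligner, the counting program and its strand setting are not given in the sources used here. The authors deposited raw read counts per gene and library, without normalization, and also values in TPM. TPM recomputed from the deposited counts and gene lengths differed by at most 0.00498%. Of the 49315 identifiers 49056 matched GENCODE vM21 (GRCm38). The members and gene lists were chosen with earlier results of these data known.

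Genes were kept by filterByExpr (count minimum 10, total minimum 15), which left 16637. Libraries were scaled by TMM (factors 0.946 to 1.04) and all 12 fitted by genotype with the quasi-likelihood test of edgeR 4.0.16 in R 4.3.3. P values were adjusted by Benjamini-Hochberg over all tested genes and 95% intervals came from the same fit. Alternatives were upper-quartile factors, no filter or a mean of at least 50 counts, the label letter as a term, 2 genotypes per fit, no fold threshold, DESeq2 1.42.0, limma 3.58.1 on log2(TPM + 1) or log2(TPM + 0.1), and each library left out. Limma kept genes with a mean of at least 1 TPM, and log2(TPM + 1) was also fitted without that filter. The share of all tested genes at an unadjusted p under 0.05 was not counted. TPM without *Gm23935*, and TPM or CPM as the scale for setting libraries side by side, were added after seeing the data. The main edgeR fit, the fits with the letter term and of 2 genotypes, DESeq2 and limma on log2(TPM + 1) were also run on simulated data. The other alternatives were not.

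Besides the members, named genes were other listed transporters called in *Gpr124-/-* against WT at a mean of at least 1 CPM (at most 10), up to 4 called genes of the response and synthetase lists, and the 3 genes most correlated with each called member. Within-letter ratios used mean CPM + 0.1. The 13877572 to 22551163 reads per library make counting error small for every member but *Slc7a3*, and the 4 embryos per genotype limit the precision. Python 3.11.15, pandas 2.3.3, numpy 2.4.6 and matplotlib 3.10.9 prepared data and plots.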

Additional observations from a re-analysis of the deposited data

Results flagged for a closer look

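In 2 of the 30 groups of 4 libraries (10 transporters in 3 genotypes), 1 library stood so far from the other 3 that its gap to the nearest exceeded the limit of Dixon's test, which chance alone passes in about 1 of 20 groups. *Slc38a5* was at 221 TPM in the *Gpr124-/-* embryo KE4, with a gap of 0.859 of the range, while the other 3 *Gpr124-/-* embryos lay between 58.7 and 81.6 TPM. KE4 had label letter K and the other 3 had letter M, so a difference between embryos and one between letters cannot be told apart here. Without KE4 the log2 fold change of *Slc38a5* against WT was -5.78 in place of -5.17. *Slc1a5* was at 43.1 TPM in the *Gpr124ΔC/ΔC* embryo JE4, with a gap of 0.844 of the range, while the other 3 lay between 27.2 and 29.7 TPM. This gap shrank to 0.573 of the range in TPM without *Gm23935* and to 0.473 in CPM, neither beyond the limit, whereas that of *Slc38a5* was 0.856 and 0.880 on the same scales, both beyond it.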

How the results depend on the processing

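Over the 27 log2 fold changes of the 9 tested transporters, 528 alternative values kept their direction and their side of the rule, 25 lost the call, 12 gained it and 2 reversed. *Slc38a5*, *Slc1a4*, *Slc7a1*, *Slc38a3*, *Slc38a2* and *Slc3a2* were called lower in *Gpr124-/-* against WT in every alternative, and *Slc38a5* was called in all 3 comparisons in every alternative. Both reversals were of *Slc7a5* with the label letter as a term, to 0.0624 in *Gpr124-/-* against WT and 0.89 against *Gpr124ΔC/ΔC*. Only letter K held both a WT and a *Gpr124-/-* embryo, 1 of each, which limits that fit. In *Gpr124ΔC/ΔC* against WT the 3 transporters called became 1 under each of the 3 limma settings and 6 without the fold threshold, and 1 to 4 with a library left out. In *Gpr124-/-* against *Gpr124ΔC/ΔC* the 6 called became 2 with the letter term and 5 to 7 with a library left out, and in *Gpr124-/-* against WT they were 6 to 7 with a library left out.

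Of the 26 other amino acid transporters, those lower in *Gpr124-/-* (6) became 3 with limma on log2(TPM + 1) and 5 to 7 with a library left out, and those higher (0) became 3 without the fold threshold and 0 to 1 with a library left out, the 1 being without KE4. Those lower in *Gpr124ΔC/ΔC* (3) became 1 under each limma setting and 1 to 4 with a library left out. Between the mutants those lower (3) became 5 with DESeq2, 1 with the letter term and 3 to 4 with a library left out, and those higher (0) became 1 with DESeq2 and 1 with only the 2 genotypes fitted, and 0 to 1 with a library left out. The cause of these changes was not tested. No paired analysis was possible because the labels give no replicate numbers to pair embryos by. The label letter, which some embryos of different genotypes share, was fitted as a block in its place, with the values given above.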

Other observations

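*Slc38a5* and *Slc7a3* lie on the X chromosome, and the embryos were of both sexes by *Xist*, which was at 31.0 TPM or more in 7 libraries and at 0.0847 TPM or less in the other 5. Among WT embryos *Slc38a5* was at 2861 and 3942 TPM in those with *Xist* and at 3581 and 4271 TPM in those without, so the 2 kinds interleaved. Among *Gpr124ΔC/ΔC* embryos the 1 without *Xist* (LE2, 1018 TPM) lay between those with it (607, 893 and 1335 TPM). Among *Gpr124-/-* embryos both without *Xist* (KE4 at 221 and ME4 at 81.6 TPM) were above both with it (ME1 at 62.9 and ME5 at 58.7 TPM), and with 2 embryos of each kind this was not tested. Several members were highest or lowest in the same embryo: of the 10, 7 were lowest in JE3 and 7 highest in LE5 by TPM among *Gpr124ΔC/ΔC* embryos, and 6 were highest in KE4 and 6 lowest in ME1 among *Gpr124-/-* embryos. In TPM without *Gm23935* these counts were 7, 8, 6 and 6. Among WT embryos 6 were lowest in JE6 by TPM, and 3 without *Gm23935*.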
